A study of Mus musculus with 6 samples.

Results

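The genes described are 10 secreted or surface proteins of luminal mammary epithelium that act in defence at mucosal surfaces, taken from a table of 37755 gene entries. The 10 symbols were *Wfdc18*, *Wfdc2*, *Slpi*, *Lcn2*, *Ltf*, *Pigr*, *Muc1*, *Mfge8*, *Cd14* and *Clca2*. An entry was a member when its gene name, split at commas, held a listed symbol. Where several entries did, the one with the highest mean over the 6 libraries was taken. All 10 symbols were found. The list was drawn up with expression in these same libraries in view, so the members' levels and differences are given as a description. The members entered the fit over all genes, but no p-value of a member is given or used as evidence.

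The study asked what loss of the cJun NH2-terminal kinase (JNK), encoded by *Mapk8* and *Mapk9*, does to the mammary epithelium. RNA was sequenced from 3 cultures of primary mammary epithelial cells (MEC) and from 3 breast tumor cell lines (MEKO), 1 library each. Expression was given as FPKM, the fragments of a gene scaled by transcript length and by all mapped fragments, so that levels can be set side by side between genes. MEC were C57/Bl6J cells that carried the WAPCre transgene with intact JNK genes, and the tissue of 3 to 5 virgin females, 10 to 12 weeks old, was pooled for each culture. They were grown on collagen I with EGF and insulin, and RNA was taken near confluence. MEKO cells carried WAPCre with deletion of *Mapk8* and *Mapk9*, and each line came from 1 tumor of a parous mouse. These cells spent 2 passages on collagen before they were moved to standard dishes. The *Wap* promoter drives Cre in luminal cells upon lactation, so the virgin MEC donors had not been through the step that switches the transgene on. Genotype, tumor origin, parity and culture history cannot be told apart between the groups.

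Luminal cells line the ducts and alveoli of the gland and release proteins into the milk space. Besides nutrients, milk carries inhibitors of proteases, iron-binding proteins that starve bacteria, and proteins that mark dying cells or bacteria for removal. Many of these proteins are also made by the epithelium of the airway and gut, where they form a first barrier to infection. In a culture, the same transcripts are read as markers of a secretory luminal state and of inflammation. In bulk RNA, fewer cells that express a gene and less RNA per cell cannot be told apart.

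Positions are given on GRCm38 (GENCODE M21). The small WAP-domain inhibitor gene *Wfdc18* was at chr11:83709015-83711348. *Slpi* (chr2:164354070-164389095, minus strand) and *Wfdc2* (chr2:164562413-164568510) were in the WFDC cluster of chromosome 2, and *Lcn2* (chr2:32384633-32388252, minus strand) was elsewhere on that chromosome. *Muc1* was at chr3:89229057-89233381. *Clca2* is an older symbol in the table. Through the synonyms in RefSeq it was traced by elimination to the gene now named *Clca3a2* (chr3:144796559-144819494, minus strand). The others were *Ltf* (chr9:111019271-111042767), *Pigr* (chr1:130826684-130852249) and *Mfge8* (chr7:79133768-79149060, minus strand), and *Cd14* is not placed here.

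The 250 bases upstream of the transcription start are shown for 4 members that span the range of behaviour: *Wfdc18*, which had the largest difference between the groups on the log2 scale, *Lcn2* and *Muc1*, which varied between the tumor lines in different orders, and *Slpi*, which was higher in the tumor lines. They were taken from RefSeq (GRCm38.p6), whose starts for *Slpi* and *Lcn2* lie inside the longer GENCODE spans given above, run 5′ to 3′ on the strand of the gene, and have matches to the motifs searched in capitals. The windows are chr11:83708754-83709003 (plus strand), chr2:32387740-32387989 (minus), chr3:89228806-89229055 (plus) and chr2:164356508-164356757 (minus), in the order printed.
Wfdc18: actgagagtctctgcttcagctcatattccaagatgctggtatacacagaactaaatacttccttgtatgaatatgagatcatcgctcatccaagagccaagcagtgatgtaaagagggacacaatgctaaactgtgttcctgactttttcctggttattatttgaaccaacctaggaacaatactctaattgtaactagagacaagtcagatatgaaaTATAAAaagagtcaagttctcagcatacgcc
Lcn2: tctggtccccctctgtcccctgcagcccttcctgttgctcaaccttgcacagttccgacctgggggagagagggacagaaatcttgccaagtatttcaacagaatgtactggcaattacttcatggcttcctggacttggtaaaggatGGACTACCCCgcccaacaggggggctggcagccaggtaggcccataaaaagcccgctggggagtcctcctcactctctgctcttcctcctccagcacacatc
Muc1: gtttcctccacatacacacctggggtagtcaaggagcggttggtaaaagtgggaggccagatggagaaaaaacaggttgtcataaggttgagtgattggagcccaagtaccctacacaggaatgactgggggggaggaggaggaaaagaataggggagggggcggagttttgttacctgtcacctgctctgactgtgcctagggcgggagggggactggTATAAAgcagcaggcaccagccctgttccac
Slpi: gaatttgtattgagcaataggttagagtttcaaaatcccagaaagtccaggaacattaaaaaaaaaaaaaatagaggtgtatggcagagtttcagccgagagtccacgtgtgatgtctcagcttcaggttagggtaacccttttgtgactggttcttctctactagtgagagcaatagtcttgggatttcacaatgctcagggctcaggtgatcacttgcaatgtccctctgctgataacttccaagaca

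The motifs searched on both strands were TGANTCA (AP1, the factor that JNK acts on), a loose NF-kappaB site (GGG and CC with 5 bases of any kind between them), TTCNNNGAA (STAT) and TATAAA. *Wfdc18* and *Muc1* each held TATAAA at -31 from the start, a position (25 to 35 bases upstream) at which 2.12% of the 32851 promoters in the RefSeq table held it. TATAAA anywhere in the window was found in 12.4% of promoters. None of the 8 members whose windows are reported held the AP1 letters, which 6.75% of all promoters held. *Lcn2* held GGACTACCCC at -102, a match on the opposite strand to the NF-kappaB letters. That motif is common, with a match in 45.8% of promoters, and in repeats of G and C it can overlap itself, as it did in *Ltf*, *Pigr* and *Mfge8*. None of the 8 windows held the STAT letters, which 7.02% of promoters held, and *Slpi* held none of the 4 motifs. These matches describe the letters of the window and not the binding of a factor.

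The libraries were close in scale. Relative depth, read from the size of the smallest values, ranged from 0.92 to 1.30 times that of MEC 1, and the 20 highest entries took 18.3% to 27.5% of summed FPKM. *Mapk8* was 22.5 ± 2.98 FPKM (SD, n = 3) in MEC and 3.47 ± 2.30 in MEKO, and *Mapk9* was 22.7 ± 1.53 and 4.61 ± 2.60, so both targeted genes were lower in every tumor line (limma, adjusted p = 0.0146 and 0.0122, and up to 0.0728 and 0.0707 without 1 of the MEC libraries). Of 12461 genes with a mean of at least 1 FPKM, 1234 (9.9%) were called, with a Benjamini-Hochberg adjusted p under 0.05 in limma and a log2 fold change beyond 0.75. Of these, 905 (7.26% of tested genes) were lower and 329 (2.64%) were higher in MEKO, so that 73.3% of calls were lower, or 62.1% after quantile normalization. The number called was 259, 301 and 477 without MEC 1, MEC 2 and MEC 3, and 1966 without line 199. Each p-value sets a group difference against the spread between these libraries, with that spread drawn toward a trend over all genes. Line 199 stood apart from the other lines in some cell markers. It held the basal keratins *Krt5* at 608 FPKM and *Krt14* at 521 FPKM and the stromal collagen *Col1a1* at 600 FPKM. Lines 233 and 336 held *Krt5* at 1.33 and 15.3 FPKM. MEC held *Krt5* at 201 to 435, *Krt14* at 289 to 460 and *Col1a1* at 44.2 to 74.7 FPKM. The basal genes *Myh11*, *Oxtr* and *Mylk* were low in line 199, at 0.0812, 0.0125 and 0.714 FPKM, while *Acta2* was at 719 FPKM.

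In MEC several of the defence genes, *Wfdc18* and *Lcn2* foremost, were among the most abundant transcripts. Together the 10 summed to 3193, 3694 and 4435 FPKM in MEC 1, 2 and 3, or 0.500%, 0.652% and 0.763% of all FPKM. In MEKO lines 199, 233 and 336 they summed to 1220, 951 and 1110 FPKM, or 0.219%, 0.166% and 0.199%. The groups did not overlap, and the 3 tumor lines were close to each other in the sum although they differed widely in its parts. *Pigr* had a mean under 1 FPKM and was left out of the fit. Of the 9 members in the fit, 7 were lower in every MEKO line than in every MEC library and 2 were higher. Over all tested genes, 18.7% were lower and 18.5% higher without overlap, together 37.2%. The call thresholds were passed by 6 members, all lower, beside 9.9% of tested genes in either direction. The median log2 fold change was -2.94 over these 9 members and 0.01 over all tested genes. The members were chosen from this same contrast, so nothing is read from these counts. Without MEC 1 or without MEC 2 the thresholds were passed by 2 members, and without MEC 3 by 3.

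**Figure D1:**
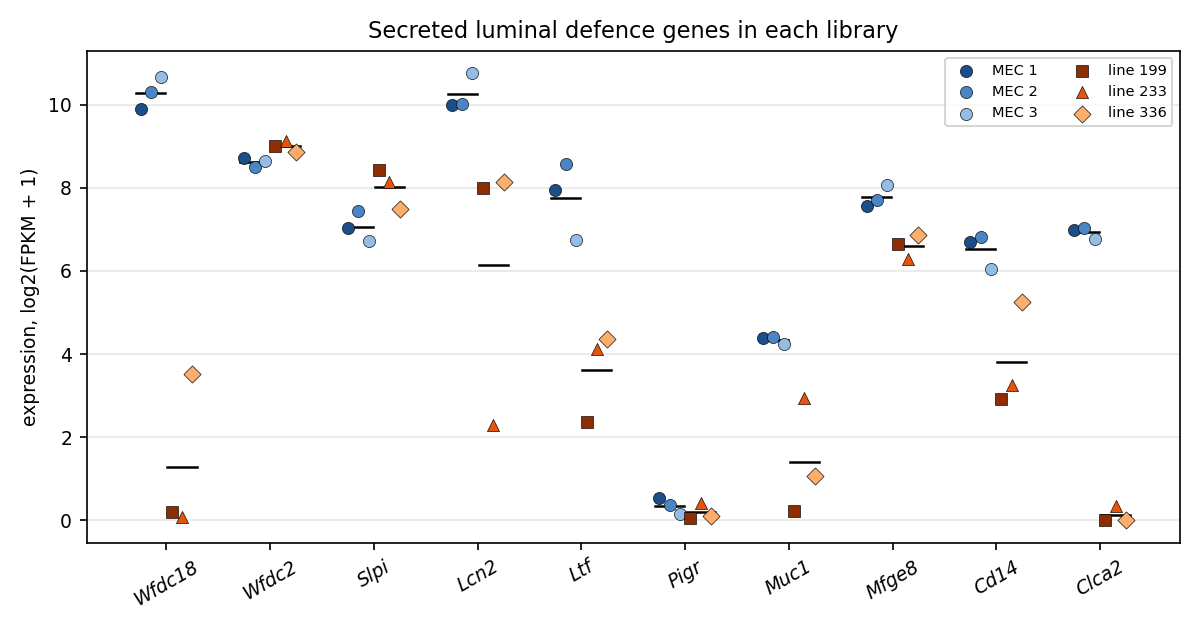
Expression of the 10 genes in each library as log2(FPKM + 1), with MEC in blue and MEKO lines in orange and brown, and short black lines at the group means (n = 3). *Wfdc18*, *Ltf* and *Clca2* lie far apart between the groups, *Wfdc2* and *Slpi* sit slightly higher in MEKO, and *Lcn2* is far lower in line 233 than in the other lines.

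The order of the genes by level also differed between the groups. In MEC, *Wfdc18* (1285 FPKM) and *Lcn2* (1259 FPKM) led with overlapping ranges, followed by *Wfdc2*, *Ltf* and *Mfge8*, which overlapped from one to the next, and then by *Slpi*, *Clca2* and *Cd14*, which did the same. *Muc1* and *Pigr* stood apart at the bottom. In MEKO, *Wfdc2* (512 FPKM) led and did not overlap with the next gene. *Slpi*, *Lcn2* and *Mfge8* came next with overlapping ranges, and the ranges of *Cd14*, *Ltf*, *Wfdc18*, *Muc1*, *Pigr* and *Clca2* ran into each other below 40 FPKM.

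The WAP-domain proteins, small cysteine-rich inhibitors of proteases, went in opposite directions. *Wfdc18*, known for its expression in mammary epithelium around involution, was at 947, 1275 and 1633 FPKM in MEC 1 to 3. It was at 0.157, 0.0629 and 10.5 FPKM in lines 199, 233 and 336. It ranked 84, 40 and 23 among all entries in the MEC libraries and 14393, 15282 and 6417 in the lines. The transcript was thus among the highest in MEC and close to the bottom of the scale in 2 lines, with line 336 holding 0.818% of the MEC mean and lines 199 and 233 0.0122% and 0.0049%. The log2 fold change of *Wfdc18* was -9.02 ± 0.91 (SE) on the log2(FPKM + 1) scale, which understates a difference from values this low. With a pseudocount of 0.1 it was -10.68.

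*Wfdc2*, also called HE4, is a secreted inhibitor made by many glandular and airway epithelia. It was at 419, 360 and 402 FPKM in MEC and 511, 556 and 467 FPKM in lines 199, 233 and 336. All 3 lines were above all 3 MEC libraries, by a small margin, at 130%, 141% and 119% of the MEC mean. This gave a log2 fold change of 0.38 ± 0.14 (SE) for *Wfdc2*. It was the least variable member between lines and the most abundant one in each of them.

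*Slpi*, the secretory leukocyte protease inhibitor that protects mucosa from neutrophil elastase, was at 131, 172 and 104 FPKM in MEC. It was at 343, 281 and 178 FPKM in lines 199, 233 and 336. The lines were higher, but the lowest of them, line 336, was only just above the highest MEC library. For *Slpi* the log2 fold change was 0.95 ± 0.30 (SE).

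The 2 members that were higher in MEKO both lie in the WFDC cluster, with other genes between them, and *Wfdc18* is not in that cluster. The cluster was taken as chr2:164176327-164745931 and held 33 protein-coding genes of the table. Of these, 24 were under 1 FPKM in every library, and they include most of the WFDC genes and the seminal vesicle genes around them. The other 9 include *Slpi*, *Wfdc2*, *Wfdc3* and the syndecan gene *Sdc4*. They also include *Sys1*, *Gm20458* and *Dbndd2*, which share 1 joined entry and so are not separate measurements. *Wfdc3* fell from 7.30 ± 1.26 to 0.362 ± 0.474 FPKM (log2 fold change -2.65 ± 0.30, adjusted p = 0.00498), and *Sdc4* fell from 241 to 98.0 FPKM (-1.30 ± 0.17, adjusted p = 0.00803). The higher levels of *Slpi* and *Wfdc2* were therefore not shared by all expressed genes between and beside them. *Wfdc17*, the neighbour of *Wfdc18* on chromosome 11, was at 4.51 ± 2.37 FPKM in MEC and was listed at 0 in all 3 lines (limma, adjusted p = 0.0108, or 0.0514 without MEC 1). The transcripts of *Wfdc18* and *Wfdc17* were 84.1% identical over 497 aligned bases and shared no stretch of 75 bases. Of the 21 other WFDC entries in the table, 2 were tested and both were called lower, beside 7.26% of all tested genes. Both passed the filter only through their MEC values, so only a lower call was open to them. Nothing about the family is read from this count.

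**Figure D2:**
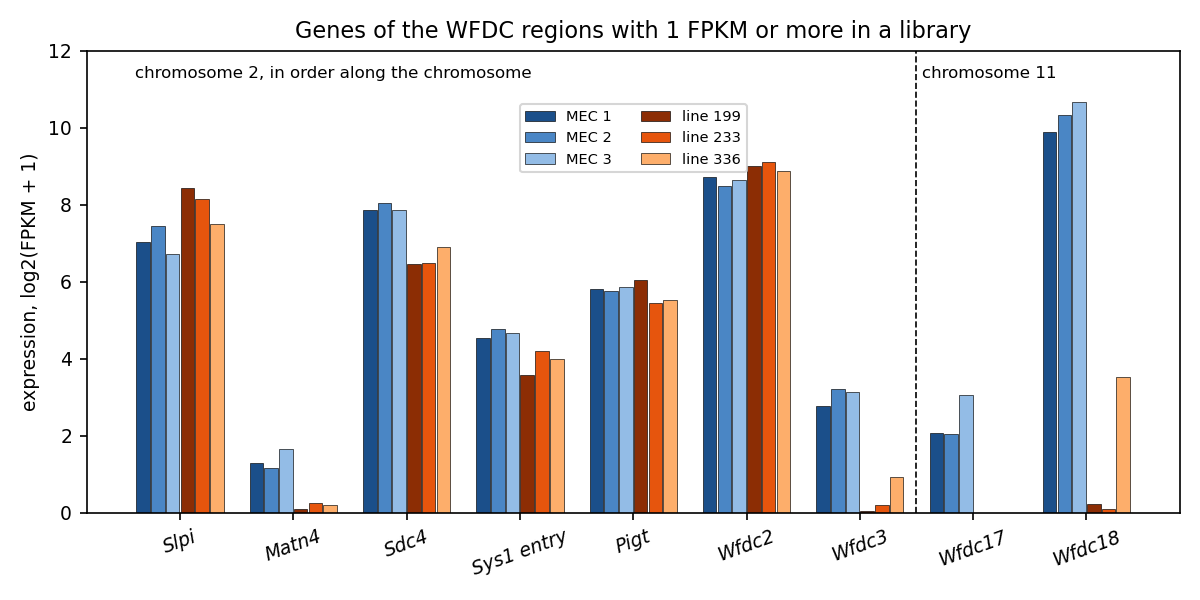
Bars give log2(FPKM + 1) in each library for the genes of the WFDC regions that reached 1 FPKM in a library, with chromosome 2 genes in order to the left of the dashed line and chromosome 11 genes to the right. *Slpi* and *Wfdc2* are higher in the MEKO lines, while *Wfdc3*, *Sdc4*, *Wfdc17* and *Wfdc18* are lower.

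Both iron-binding members were lower in the tumor lines, one of them unevenly. *Lcn2* encodes lipocalin 2, which binds bacterial siderophores and is a classic acute phase product of epithelium. It was at 1012, 1032 and 1734 FPKM in MEC and at 255, 3.93 and 282 FPKM in lines 199, 233 and 336. All lines were below MEC, but lines 199 and 336 kept 20.3% and 22.4% of the MEC mean, and line 233 kept 0.312%. The log2 fold change of *Lcn2* was -4.10 ± 1.54 (SE), with the widest error of the 9 members. Without line 233 it was -2.18.

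*Ltf* encodes lactoferrin, the iron-binding protein of milk and of neutrophil granules. It was at 245, 381 and 107 FPKM in MEC. It was at 4.16, 16.4 and 19.6 FPKM in lines 199, 233 and 336. MEC 3 was the lowest MEC library for *Ltf* and the highest for *Lcn2*, and line 199 was the lowest line. For *Ltf* the log2 fold change was -4.14 ± 0.66 (SE), with the lines at 1.70%, 6.72% and 8.04% of the MEC mean.

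Neutrophils also carry *Lcn2* and *Ltf*, and their markers were low throughout. Of 10 neutrophil markers, 8 were under 1 FPKM in every library, *Elane* was at 0 in all of them, and *Ly6g* and *Mpo* were under 1 FPKM. The summed level of the list was 1.68 to 4.57 FPKM in MEC and 19.3, 3.06 and 24.6 FPKM in the lines, most of it *S100a8*, which keratinocytes express too. Line 233 was the lowest line for this sum and for *Lcn2*, and the part of one in the other was not tested.

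The next members act at the cell surface. *Muc1*, a transmembrane mucin of the apical membrane whose outer part is shed into milk, was at 20.004, 20.3 and 17.9 FPKM in MEC. It was at 0.168, 6.69 and 1.10 FPKM in lines 199, 233 and 336. MEC were nearly equal and the lines were spread, with line 233, the lowest for *Lcn2*, the highest for *Muc1* at 34.5% of the MEC mean. Lines 199 and 336 held 0.868% and 5.68%. The log2 fold change of *Muc1* was -2.94 ± 0.65 (SE), or -3.91 with a pseudocount of 0.1.

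*Pigr* carries polymeric immunoglobulin across the epithelium into secretions. It was at 0.444, 0.296 and 0.115 FPKM in MEC and 0.035, 0.335 and 0.0799 FPKM in lines 199, 233 and 336. The groups overlapped, and at under 1 FPKM in each library no difference was detectable for *Pigr*. MEC in culture thus held high *Ltf* and *Lcn2* and hardly any *Pigr*.

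*Cd14* is the co-receptor that hands lipopolysaccharide to the TLR4 complex and also occurs as a soluble protein in milk. It was at 103, 113 and 64.7 FPKM in MEC. It was at 6.51, 8.5 and 37.3 FPKM in lines 199, 233 and 336. Line 336 kept 39.9% of the MEC mean and lines 199 and 233 kept 6.96% and 9.08%. With all libraries *Cd14* had a log2 fold change of -2.72 ± 0.62 (SE).

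Monocytes and macrophages are the best known source of *Cd14*. The leukocyte list summed to 24.7 to 47.9 FPKM in MEC and to 2.01, 3.20 and 25.1 FPKM in lines 199, 233 and 336, the same order of lines as for *Cd14*. In line 336, 23.5 FPKM of that sum was the lysosomal gene *Cd68*. The defining pan-leukocyte gene *Ptprc* was at most 0.399 FPKM and *Adgre1* at most 0.347 FPKM in any library, and 6 of the 12 genes were under 1 FPKM in all of them. *Lyz2* and *Laptm5*, which passed the test, fell in MEKO (log2 fold change -4.51 ± 0.28 and -1.61 ± 0.36, adjusted p = 0.00094 and 0.0416). The call of *Laptm5* was lost in 6 of the 10 settings that tested it, without MEC 1, MEC 2 or any 1 line among them. The part of these cells in the level of *Cd14* was not tested.

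*Mfge8*, lactadherin, coats milk fat globules and bridges phosphatidylserine on dying cells to integrins on the cells that engulf them. It was at 190, 209 and 265 FPKM in MEC and 99.6, 77.6 and 115 FPKM in lines 199, 233 and 336. The groups stood apart and the lines kept 45.0%, 35.1% and 51.9% of the MEC mean. *Mfge8* had a log2 fold change of -1.18 ± 0.21 (SE).

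*Clca2* belongs to the calcium-activated chloride channel regulators, secreted or shed proteins of epithelia. It was at 125, 131 and 108 FPKM in MEC. It was at 0.00948 and 0.269 FPKM in lines 199 and 233 and was listed at 0 in line 336. All 3 lines were near 0, and MEC were close to each other. The added 1 FPKM flattens differences among values this low, so the small error below holds on that scale only. The log2 fold change of *Clca2* was -6.81 ± 0.17 (SE), or -9.57 with a pseudocount of 0.1. Its nearest relative *Clca3a1* (*Clca1* in the table) was 96.5% identical over 3425 aligned transcript bases, and 13.4% of the 75-base windows of *Clca3a2* occurred in it. These windows are shorter than the paired reads of 150 bp, so whether reads were split between the 2 genes was not tested. *Clca1* was at 2.36 ± 0.208 FPKM in MEC and 1.19 ± 0.657 in MEKO. An antisense gene overlapped 6.06% of the exonic bases of *Clca2*. The table's *Clca5*, which is the gene now called *Clca2*, was at 0.473 ± 0.328 FPKM in MEC.

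**Figure D3:**
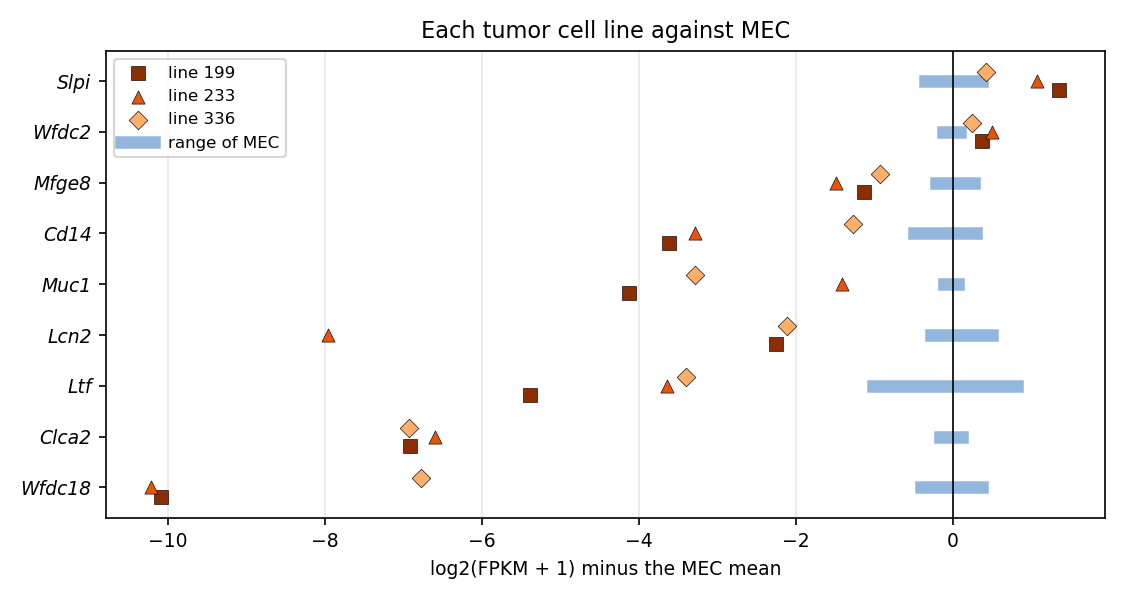
Each point is 1 MEKO line, placed at its log2(FPKM + 1) minus the MEC mean for the 9 members in the fit, and each blue bar is the range of the 3 MEC libraries. The lines are spread most widely for *Lcn2* and *Wfdc18*, and no line is lowest for every gene.

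The lines thus kept different members. Each of the 3 lines was the lowest of the lines for 3 of the 9 members. Line 199 was lowest for *Ltf*, *Muc1* and *Cd14* and had the highest *Slpi*. Line 233 was lowest for *Wfdc18*, *Lcn2* and *Mfge8* and had the highest *Wfdc2*, *Muc1* and *Clca2*. Line 336 had the highest *Wfdc18*, *Lcn2*, *Ltf*, *Mfge8* and *Cd14* and the lowest *Wfdc2*, *Slpi* and *Clca2*. Each line was 1 library, so these differences between lines have no replicate. *Wfdc18* spanned 167-fold between the lowest and the highest line, although its values were small in all of them.

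The genes whose profile over the 6 libraries was closest to the mean profile of the members were *Hey1*, *Muc20*, *Id4*, *Cxcl15* and *Mtss1*. Likeness was the root mean square difference of log2(FPKM + 1) after the MEC mean was subtracted, and it ranged from 0.20 for *Hey1* to 0.25 for *Mtss1*. *Hey1*, a target of Notch signaling, was at 11.2 ± 1.14 FPKM in MEC and 0.572 ± 0.748 in MEKO. *Muc20*, a membrane mucin, was at 13.3 ± 2.55 and 0.522 ± 0.676 FPKM. *Id4*, a helix-loop-helix regulator of mammary cells, was at 26.8 ± 3.31 and 2.07 ± 1.34 FPKM. They were chosen for this likeness, which carries no test.

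Other secreted defence proteins were lower in part. Of the 46 entries of that list in the table, 23 were tested, 7 were called lower and none higher. The median log2 fold change was -1.0. Over all tested genes 7.26% were called lower and 2.64% higher, the background for each list below. *Lyz2*, *Lrg1*, *Sftpd* and the *Cfb* entry passed the filter only through their MEC values, so only a lower call was open to them. The lists were chosen with earlier results of these data known, so nothing is read from their counts. The 3 largest decreases among the 7 were those of the chaperone clusterin, *Clu*, the hemoglobin scavenger haptoglobin, *Hp*, and the pattern recognition protein *Ptx3*. *Clu* fell from 2596 ± 182 to 69.2 ± 38.9 FPKM (log2 fold change -5.34 ± 0.36, adjusted p = 0.00139). *Hp* fell from 92.5 ± 23.8 to 2.40 ± 3.57 FPKM (-5.27 ± 0.70, adjusted p = 0.00931). *Ptx3* fell from 81.5 ± 43.8 to 4.01 ± 6.62 FPKM (-4.85 ± 0.98, adjusted p = 0.0308). Over the 12 alternative settings the adjusted p reached 0.0541 for *Hp* and 0.123 for *Ptx3*. The whole list had 2 calls without MEC 1, 2 without MEC 2 and 4 without MEC 3. At an unadjusted p under 0.05, 10 were lower and 1 was higher. Complement *C3* was not called, with overlapping groups at 14.4 ± 3.12 FPKM in MEC and 39.7 ± 39.5 in MEKO.

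Among membrane mucins and related glycoproteins, 3 of the 5 tested were called lower, beside 7.26% of all tested genes. The median log2 fold change was -2.94. *Muc15* and *Muc20* passed the filter only through their MEC values, so only a lower call was open to them. *Mcam* fell from 80.9 ± 9.30 to 5.70 ± 4.43 FPKM (log2 fold change -3.80 ± 0.42, adjusted p = 0.00484), *Muc20* had a log2 fold change of -3.30 ± 0.34 (adjusted p = 0.00385) and *Muc15* one of -2.83 ± 0.34 (adjusted p = 0.00627). All 3 were called under each of the 12 alternative settings. Of the other CLCA entries, 2 were tested and *Clca4*, now *Clca3b*, was called, at 4.12 ± 2.495 FPKM in MEC and 0.055 ± 0.0845 in MEKO (adjusted p = 0.0374). That call was lost in 6 of the settings in which *Clca4* was tested, with adjusted p up to 0.151.

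Beside *Lcn2* and *Ltf*, other genes of iron handling were examined. Of 18 tested, 4 were called lower and none higher, with a median log2 fold change of -0.15. The entry of transferrin, *Trf*, which the table joins with *Srprb*, fell from 53.7 ± 26.6 to 8.24 ± 1.42 FPKM (log2 fold change -2.47 ± 0.35, adjusted p = 0.0109). The ferroxidase gene *Heph* (-2.12 ± 0.31, adjusted p = 0.0123) and the hepcidin regulator *Hfe* (-1.27 ± 0.26, adjusted p = 0.0303) were the next largest decreases among the called genes. Without MEC 1 the list had 1 call, without MEC 2 it had 0 and without MEC 3 it had 2. The call of *Hfe* was lost in 6 of 11 settings, also without line 233 and without line 336. At an unadjusted p under 0.05, 7 genes of the list were lower and 1 was higher.

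Around *Cd14*, 20 genes of the toll-like receptor pathway were tested and 1 was called, the receptor *Tlr2*, which fell from 9.43 ± 1.31 to 4.23 ± 0.395 FPKM (log2 fold change -0.99 ± 0.17, adjusted p = 0.0204). The median was -0.07. The partners of *Cd14* in lipopolysaccharide sensing were not called. *Tlr4* was at 6.83 ± 1.15 and 5.47 ± 2.98 FPKM (adjusted p = 0.509), and *Ly96* was at 8.37 ± 2.45 and 9.29 ± 4.17 FPKM (adjusted p = 0.880). *Tlr2* was not called without any 1 of the MEC libraries, when its adjusted p reached 0.105.

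For *Mfge8*, 14 genes that take part with it in the clearance of dying cells were tested, with 3 called lower, 1 called higher and a median of -0.74. The integrin *Itgb3*, a lactadherin receptor subunit, fell from 17.0 ± 4.02 to 0.507 ± 0.840 FPKM (log2 fold change -3.69 ± 0.40, adjusted p = 0.00447). *Pros1*, a ligand of the TAM receptors, fell by 2.31 on the log2 scale (adjusted p = 0.013), and *Elmo1*, an engulfment adaptor, by 1.64 (adjusted p = 0.0113). *Axl*, a TAM receptor, rose from 87.7 ± 19.9 to 227 ± 48.8 FPKM (log2 fold change 1.37 ± 0.24, adjusted p = 0.0197). *Axl* and *Pros1* were not called without any 1 of the MEC libraries, nor *Elmo1* without MEC 1 or MEC 2.

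Of 30 tested regulators of acute phase and luminal genes, 9 were called lower and none higher, with a median of -0.57. At an unadjusted p under 0.05, 13 were lower and 1 was higher. The ETS factor *Elf5*, which directs alveolar luminal differentiation, fell from 36.2 ± 7.05 to 0.160 ± 0.261 FPKM (log2 fold change -5.01 ± 0.24, adjusted p = 0.000645). *Cebpd*, an acute phase factor, fell from 101 ± 17.6 to 14.3 ± 12.4 FPKM (-3.16 ± 0.70, adjusted p = 0.0402). The luminal factor *Gata3*, in an entry joined with another gene, fell from 16.2 ± 4.57 to 2.60 ± 2.67 FPKM (-2.53 ± 0.58, adjusted p = 0.0435). *Stat3* and *Stat5a*, named after their values were seen, fell by 1.63 and 1.72 on the log2 scale (adjusted p = 0.00457 and 0.00484). *Elf5* was called under each alternative, while *Cebpd* and *Gata3* were each lost in 6 of 12, with adjusted p up to 0.144 and 0.158. The list had 3 calls without MEC 1, 3 without MEC 2, 4 without MEC 3, 16 without line 199, 5 without line 233 and 5 with a pseudocount of 0.1.

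Of 14 tested cytokines and chemokines of inflammation, 1 was called, with a median log2 fold change of -0.10. At an unadjusted p under 0.05, 4 were lower and 2 were higher. *Cxcl5* and *Cxcl1*, named after their values were seen, were higher in every line than in every MEC library but were not called. Their log2 fold changes were 4.94 ± 1.31 and 2.27 ± 0.90 (limma, adjusted p = 0.0638 and 0.164). *Tnf* was at 5.69 ± 2.59 FPKM in MEC and was listed at 0 in all 3 lines (adjusted p = 0.00989), and it was not called without MEC 1 or MEC 2. *Il1a*, named after its values were seen, was at 462 FPKM in line 199, 18.8 in line 233 and 3.24 in line 336, beside 1.54 to 2.67 FPKM in MEC, and was not called. Its part in the levels of the members was not tested. Over the 9 lists together, 31 of 127 tested genes were called lower and 1 higher, beside 7.26% and 2.64% of all tested genes. Called genes such as *Elf5*, *Tnf* and *Heph* passed the filter only through their MEC values, which fixed their direction. The lists were also chosen with earlier results of these data known, so nothing is read from this total. That total of 32 was 11 without MEC 1, 11 without MEC 2 and 21 without MEC 3.

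**Figure D4:**
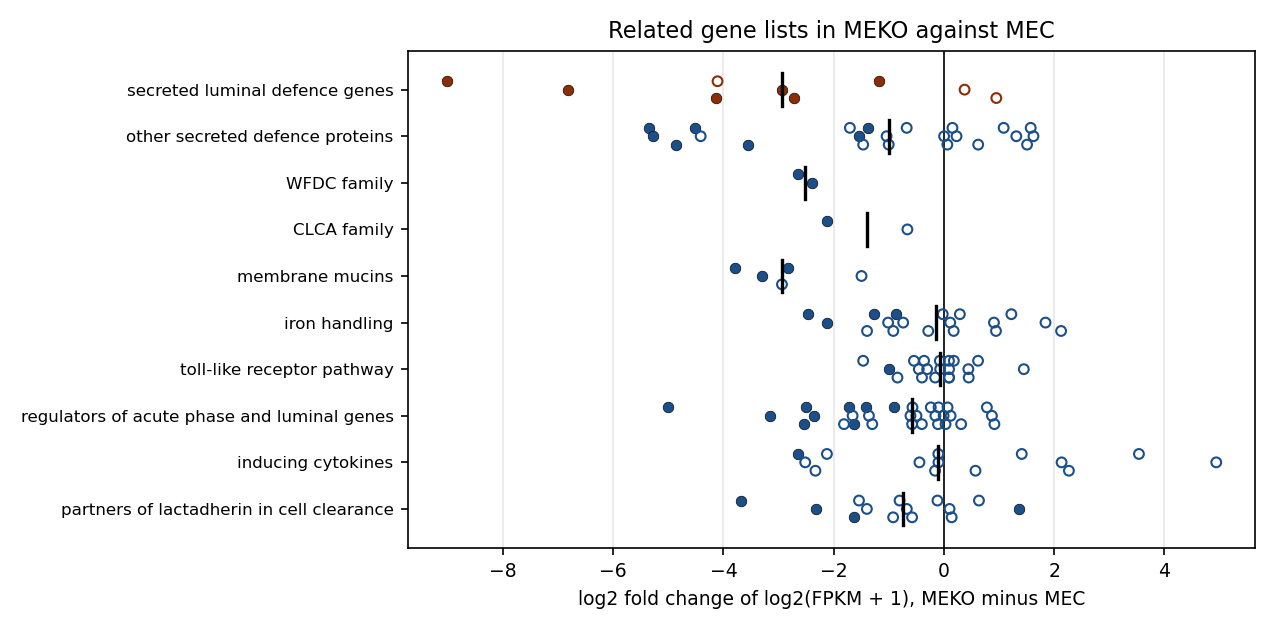
Each point is 1 tested gene at its log2 fold change of log2(FPKM + 1), MEKO minus MEC, with called genes filled, other genes open and a black bar at the median of each list. Of the members (top, median -2.94), 7 lie to the left of 0 and 2 to the right, the membrane mucins lie to the left, and the iron handling and toll-like receptor lists are centred near 0 (medians -0.15 and -0.07).

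Cell type markers also differed between the groups. The luminal list summed to 7561 to 11773 FPKM in MEC and to 1479, 3927 and 3312 FPKM in lines 199, 233 and 336, and 6 of its 12 genes were called lower. The largest decreases were those of *Aldh1a3* (log2 fold change -5.70 ± 0.64, adjusted p = 0.00487), *Krt19* (-5.34 ± 0.54, adjusted p = 0.00382) and *Elf5*. No luminal marker was at 0 in every library, and *Krt8* was still at 230, 539 and 447 FPKM in the lines. Basal markers summed to 1931 to 3657 FPKM in MEC and to 2461, 12.0 and 60.1 FPKM in the lines, with 3 of 10 called lower (*Myh11*, *Oxtr* and *Mylk*). Milk protein genes summed to 1093 to 1881 FPKM in MEC, nearly all of it *Csn3*, and to 0.382, 12.6 and 4.21 FPKM in the lines, and 2 of 4 tested, *Csn3* and *Csn1s1*, were called lower. *Csn3* fell from 1374 ± 434 to 0.214 ± 0.169 FPKM (log2 fold change -10.11 ± 0.25, adjusted p = 4.49e-05). *Csn2* was at 0 in MEC.

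Fibroblast markers summed to 392 to 564 FPKM in MEC and to 1433, 3.11 and 4.38 FPKM in lines 199, 233 and 336, with 1 of 7 tested called (*Dcn*, lower). Squamous markers summed to 179 to 376 FPKM in MEC and to 252, 11.8 and 25.7 FPKM in the lines, with 3 of 5 called lower (*Sprr1a*, *Krt4* and *Ivl*). Of the 3 endothelial and 2 neutrophil markers tested, limma called 0, while at an unadjusted p under 0.05 2 endothelial markers were lower and 1 neutrophil marker was higher. Without MEC 1 or MEC 2 the calls of *Oxtr*, *Csn1s1*, *Dcn* and *Ivl* were lost, and without line 233 or line 336 those of *Oxtr*, *Csn1s1* and *Ivl*. Without line 199, 9 basal and 6 fibroblast markers were called. In line 199 most of the squamous sum was *Krt6a* (223 FPKM), and most of the fibroblast sum was *Col1a1*, *Col1a2* and *Postn* (600, 408 and 321 FPKM). Other genes of these lists were low there, with *Dcn*, *Ivl* and *Krt4* at 0.311, 0.708 and 1.63 FPKM. Line 199, with the highest basal, fibroblast and squamous sums of the lines, was the lowest line for *Muc1*, *Ltf* and *Cd14* but not for *Wfdc18*, *Lcn2* or *Mfge8*. The share of luminal cells in each culture, and its part in the levels of the defence genes, was not tested. Over all 47 marker genes tested, 17 were called lower, beside 7.26% of all tested genes. The number called was 10 without MEC 1, 10 without MEC 2 and 28 without line 199, and nothing is read from it.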

How the data were processed

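RNA-seq of 3 MEC cultures and 3 MEKO tumor cell lines was analysed, with groups taken from the sample titles. The deposited table holds FPKM values that the authors made by aligning paired-end reads of 150 bp to mm10 (GRCm38) with Bowtie2 and TopHat2 2.0.14 and quantifying genes with Cufflinks 2.2.1. The authors' Cuffdiff comparison was not used. Of 37755 entries, 2 had no values, 15940 were at 0 in every library and 466 joined several gene names. Read counts and depth are unknown, so no counting interval was computed, and low values are the least precise.

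Differences (MEKO minus MEC) were fitted with limma 3.58.1 in R 4.3.3 on log2(FPKM + 1) with a mean-variance trend, for 12461 genes with a mean of at least 1 FPKM, and adjusted by the Benjamini-Hochberg method. The procedure was tested on simulated data. A gene was called at an adjusted p under 0.05 and a log2 fold change beyond 0.75, and 3509 genes had an unadjusted p under 0.05. A gene near 0 in 1 group could pass the filter only through the other group, which fixed its direction. An exact permutation test of 3 against 3 libraries cannot go below p = 0.1 and was not used. Marker and companion lists were written from general knowledge. The members and lists were chosen with earlier results of these data known, so no p is given for members, and none over a list. Named genes were all members, *Mapk8* and *Mapk9*, for each list the called genes that moved most, no more than 3 a direction, and the 5 genes nearest in profile to the members. Other names were chosen after their values were seen or are markers given for their level. Coordinates are from GENCODE M21 on GRCm38, the authors' build, and promoters from RefSeq on GRCm38.p6, with 8 members reported. The promoter of 1 further member is not reported here. Protein sequences, planned for comparison, were not used here. Figures were drawn in Python 3.11.15 with matplotlib 3.10.9.

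The 12 alternatives were a fit without the mean-variance trend, upper-quartile scaling, quantile normalization, a pseudocount of 0.1, no filter, a filter at a mean of 5 FPKM, and the omission of each library in turn.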

Additional observations from a re-analysis of the deposited data

How the results depend on the processing

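The number of genes called, 1234, was 738 with a mean of at least 5 FPKM and ranged from 259 (without MEC 1) to 1966 (without line 199) when 1 library was left out. The members called, 6, ranged from 2 (without MEC 1 or MEC 2) to 6, with 3 without MEC 3, 5 with a pseudocount of 0.1 and 4 without the filter. *Wfdc18* and *Clca2* were called under all 12 alternatives. The members were chosen from this same contrast, so nothing is read from how many of them keep the call. The related genes called, 32, ranged from 11 to 45, and the marker genes called, 17, from 10 to 28. No member changed direction, and 1 of 108 recomputed member values moved beyond the spread between replicates, *Clca2* with a pseudocount of 0.1 (-9.57). The fits that changed only the filter or the trend leave a fold change as it is, so they could not move one. The spread was the larger group SD over all libraries, the omitted one included. By that measure *Lcn2*, at -4.10 and at -2.18 without line 233, did not count as moved. *Pigr* was fitted only without the filter. Of 34 named genes of the lists, 15 were called under every alternative that kept them and 19 lost the call in 1 or more. The median of all genes shifted by at most 0.0857 on the log2 scale, under quantile normalization. Leaving out a MEC library leaves 2 of that group, with spread shared across groups. No paired analysis was possible because MEC and MEKO libraries share no replicate numbers. With 3 libraries a group, 1 per tumor, FPKM in place of counts and no batch recorded, differences between single lines have no error.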

Other observations

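Line 233 stood out among the tumor lines for the secreted defence proteins outside the 10 members, a pattern noticed after the values were seen and given without a test. It was the lowest of the 3 lines for 13 of the 23 tested genes of that list (56.5%), compared with 32.9% of all 12461 tested genes, while line 199 was the lowest for 5 and line 336 for 4. The count includes gaps that were small or near 0. In lines 199, 233 and 336, *Lyz2* was at 0.0159, 0 and 0.0182 FPKM and *Clu* at 49.7, 43.9 and 114 FPKM. Complement *C3* was at 81.8 FPKM in line 199, 3.43 in line 233 and 33.9 in line 336, beside 11.6 to 17.7 FPKM in MEC. The serum amyloid gene *Saa3* was at 5.24 and 4.16 FPKM in lines 199 and 336 and was listed at 0 in line 233. The lipopolysaccharide-binding protein gene *Lbp* was at 0.888, 0.110 and 5.96 FPKM in lines 199, 233 and 336, and at 4.58 to 8.52 FPKM in MEC. Some genes of the list went the other way and were highest in line 233. In lines 199, 233 and 336, *S100a7a* was at 4.95, 43.4 and 0.523 FPKM, *Spp1* at 58.3, 734 and 675 FPKM and *Cp* at 52.4, 229 and 207 FPKM. Of the members, line 233 was the lowest line for 3 of 9, no more than either other line.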
